A study of Mus musculus with 6 samples.

Results

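Messenger RNAs of 9 genes were followed in LARP1 precipitates of mouse dorsal root ganglia: the collapsin response mediator proteins Crmp1, Dpysl2, Dpysl3, Dpysl4 and Dpysl5, and the microtubule-associated proteins Map1a, Map1b, Map2 and Mapt. They were chosen by Ensembl gene identifier, and all 9 were among the 16976 identifiers of the deposited count table. The samples came from wild-type mice, with dorsal root ganglia (DRG, which hold the cell bodies of sensory neurons beside the spinal cord) taken either after sciatic nerve injury, with 3 libraries, or without injury, with 3 libraries. The sources used here do not give the time after injury, the side, the age and sex of the mice or whether ganglia were pooled. LARP1 was pulled down with an antibody from ganglion lysate, and the RNA recovered with it was read as amplified nanopore cDNA. No input RNA or control precipitate was analysed here, so each value is a level in the precipitate, not an enrichment. DRG hold neurons, glia and other cells, and fewer cells of a type cannot be told apart from less RNA per cell. Markers of the ganglion's cell types were not analysed here, because the gene tables used pair no Ensembl identifier with a symbol.

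Collapsin response mediator proteins (CRMPs) are cytosolic phosphoproteins that assemble as tetramers and bind tubulin, and they carry semaphorin signals that collapse the growth cone of an axon. Phosphorylation of CRMP2 by Cdk5 and GSK3 is known to weaken its hold on tubulin. The microtubule-associated proteins (MAPs) bind along the microtubule wall and stabilise it: tau, encoded by Mapt, is enriched in axons, MAP2 in dendrites and cell bodies, MAP1B in growing axons, and MAP1A in mature neurons. DRG neurons send out axons and no dendrites. LARP1 is an RNA-binding protein that grips the cap and the first bases of mRNAs that begin with a C followed by a pyrimidine tract, the TOP motif of mRNAs for ribosomal proteins.

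The annotated starts of the members are shown because that motif lies at the first base of an mRNA. RefSeq promoter windows of the mouse build GRCm38.p6 were matched by symbol for 5 of the 9 members, with 6 windows in all, since Crmp1 had both an upstream and a downstream start. No window was available for Dpysl2, Dpysl3, Dpysl4 and Mapt, so their starts were not examined. Each line gives the 10 bases before the annotated start and the 20 bases from it, on the coding strand and 5′ to 3′, with the first 5 transcribed bases in capitals. The start of Rps6, which encodes a ribosomal protein and carries a TOP motif, is printed for comparison.
Crmp1, first window: tttgcccgacCGCAGtcgcgcttgggccgc
Crmp1, second window: gggcgaatccGGTTCtgctgccgccaccgg
Dpysl5: tgaagtgtcgCTAGTtaccatgggaccaga
Map1a: cccgcagcggACGCAgctagcctaacactc
Map1b: ggaggaggggGGACGcagggggcggagcgg
Map2: ggaggcggcgGCGGCagcagcatcctctct
Rps6: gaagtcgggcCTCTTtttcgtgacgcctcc
A C at the start with each of the next 4 bases a C or T was found in 0 of the 6 member windows and in 2.51% of 32851 windows of all genes, searched on the coding strand at the first base only. With so low a share over all genes, 0 of 6 windows is not a result about the members. Crmp1 (first window) and Dpysl5 start with a C that a purine follows within the next 2 bases. The longest run of C and T within the first 50 bases was 12 bases in Map2, and 3.28% of all windows held a run at least as long. It was 9 bases in Map1b and at most 8 bases in the others. Annotated starts can differ from those used in DRG, and starts were not measured here.

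The injured libraries held 211337 to 211879 counts and the uninjured libraries 116186 to 116608. In each group the spread between the 3 libraries was close to counting noise: the variance over genes with at least 15 counts was 1.12 times that of counting in the injured and 1.16 times in the uninjured group, and library totals spanned 0.256% of their mean in the injured and 0.363% in the uninjured group. The 3 libraries of a group were therefore summed and counted as 1 sample, so no difference here has a replicate check, and injury and the preparation of a group cannot be told apart. For the members, no set of 3 libraries differed beyond counting error (exact multinomial tests, 17 sets, lowest adjusted p = 0.808). Levels are counts per 1000000 counts of the library or summed group (CPM), with 95% exact Poisson intervals, and ratios are injured over uninjured CPM with 95% exact Clopper-Pearson intervals. These intervals cover the counting error of reads only, since each group counted as 1 sample. Amplified reads were counted without molecular identifiers, so copies of a molecule may have been counted more than once and the intervals may be too narrow.

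Among the CRMPs, Dpysl3 (also CRMP4) was higher in the injured precipitate, Crmp1 had the same ratio with too few counts to separate it from 1, and Dpysl2 and Dpysl5 had ratios below 1 with intervals that included it. Among the MAPs, Map2 had the highest ratio of all 9 members, close to 2. Map1b and Mapt lay near 1 and Map1a had a ratio below 1, all with intervals that included 1. Of the 7 members that passed the filter on low counts, Dpysl3 and Map2 were called higher in the injured reads and 0 were called lower by the quasi-likelihood test of edgeR (Benjamini-Hochberg adjusted over all genes tested, threshold 0.05). Over all 3158 genes tested, 24.9% were called higher and 22.1% lower. A share of 2 in 7 members (28.6%) is near that background and is not a result about these genes as a set. Map2 passed the filter only through the injured libraries, where it is high, so neither its call nor that count is support for a difference in the set. At an unadjusted p under 0.05 the same 2 members were higher and 0 were lower, where 28.1% of the genes tested were higher and 25.3% lower. DESeq2 called 0 of the 8 members it tested higher and limma-voom called only Dpysl3 of 7, and both called 0 lower. The share of all genes that these 2 methods called is not given here, so these counts cannot be set against a background. With the libraries of each group summed and a coefficient of variation of 0.2 between samples assumed, 0 of the 7 members were called, where 9.66% of all genes were called higher and 5.57% lower. All of these tests set reads of 2 samples against each other and say nothing of the spread between animals.

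Dpysl3 encodes a CRMP that is abundant in developing neurons and binds actin as well as tubulin. Its counts were 109, 127 and 118 with injury and 56, 41 and 41 without. As levels these were 514, 601 and 558 CPM in the injured and 482, 352 and 353 CPM in the uninjured libraries. Every injured library lay above every uninjured library, with uninjured library 1 close below injured library 1. The same held for 32.4% of the genes tested. The summed level was 558 CPM (interval 501 to 619) with injury and 395 CPM (332 to 467) without, a ratio of 1.41 (1.16 to 1.73). On the scale of the test, which divides by TMM-scaled library sizes, the fold change was 1.34. Without uninjured library 2 the log2 fold change was 0.34 and without library 3 it was 0.33, against 0.42 with all, and the gene was not called in either fit. With all 6 libraries kept, it was also not called by DESeq2 (log2 fold change 0.49) or when a variation of 0.2 or 0.4 between samples was assumed.

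Crmp1 encodes a CRMP that takes part in semaphorin 3A signalling. Injured libraries held 34, 25 and 36 counts, or 160, 118 and 170 CPM, against 14, 11 and 12 counts, or 120, 94.3 and 103 CPM, in the uninjured libraries. In 8 of the 9 pairs of libraries the injured library was higher, and the exception was injured library 2 against uninjured library 1. The summed level was 150 CPM (121 to 183) with injury and 106 CPM (74.6 to 146) without, and the ratio of 1.41 (0.956 to 2.12) included 1. Its point estimate matched that of Dpysl3, whose total of 492 counts gave a narrower interval than the 132 counts of Crmp1. With 132 counts in all, only a ratio of at least 1.52 or at most 0.680 would have had an interval beyond 1. Without injured library 2 the ratio was 1.56 (1.03 to 2.39), although edgeR did not call the gene in that fit.

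Dpysl2 encodes CRMP2, the family member known for promoting axon formation by carrying tubulin to growing microtubule ends. Its injured libraries held 14, 16 and 17 counts, or 66.1, 75.7 and 80.4 CPM, against 8, 14 and 9 counts, or 68.8, 120 and 77.5 CPM, in the uninjured libraries. The groups overlapped, and uninjured library 2 was the highest of the 6. The ratio was 0.834 (0.519 to 1.36), and without uninjured library 2 it was 1.01. At its 78 counts a ratio between 0.609 and 1.71 could not be separated from 1, so a change of the size seen for Dpysl3 was not detectable at this depth in either direction.

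Dpysl5 encodes CRMP5, known in other neurons for restraining neurite outgrowth promoted by CRMP2. It had 14, 7 and 4 counts in the injured and 5, 5 and 9 counts in the uninjured libraries, and did not pass the filter on low counts. The summed level was 39.4 CPM (25.5 to 58.2) with injury and 54.4 CPM (32.8 to 85.0) without, a ratio of 0.724 (0.383 to 1.39). Its injured libraries gave the lowest p of the 17 sets, at 66.1, 33.1 and 18.9 CPM (exact multinomial p = 0.0504 before adjustment), and the ratio was 0.478 without injured library 1. Dpysl4, which encodes CRMP3, was at the edge of detection, with 0 counts in the injured libraries and 0, 1 and 1 counts in the uninjured libraries. Its 0 of 634615 injured counts allow a level of up to 4.73 CPM by the floor of 3 counts over the group, or 5.81 CPM by the exact Poisson limit, and the uninjured level was 5.73 CPM (0.694 to 20.7). The interval of the ratio reached up to 2.93, so no difference was detectable.

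**Figure D1:**
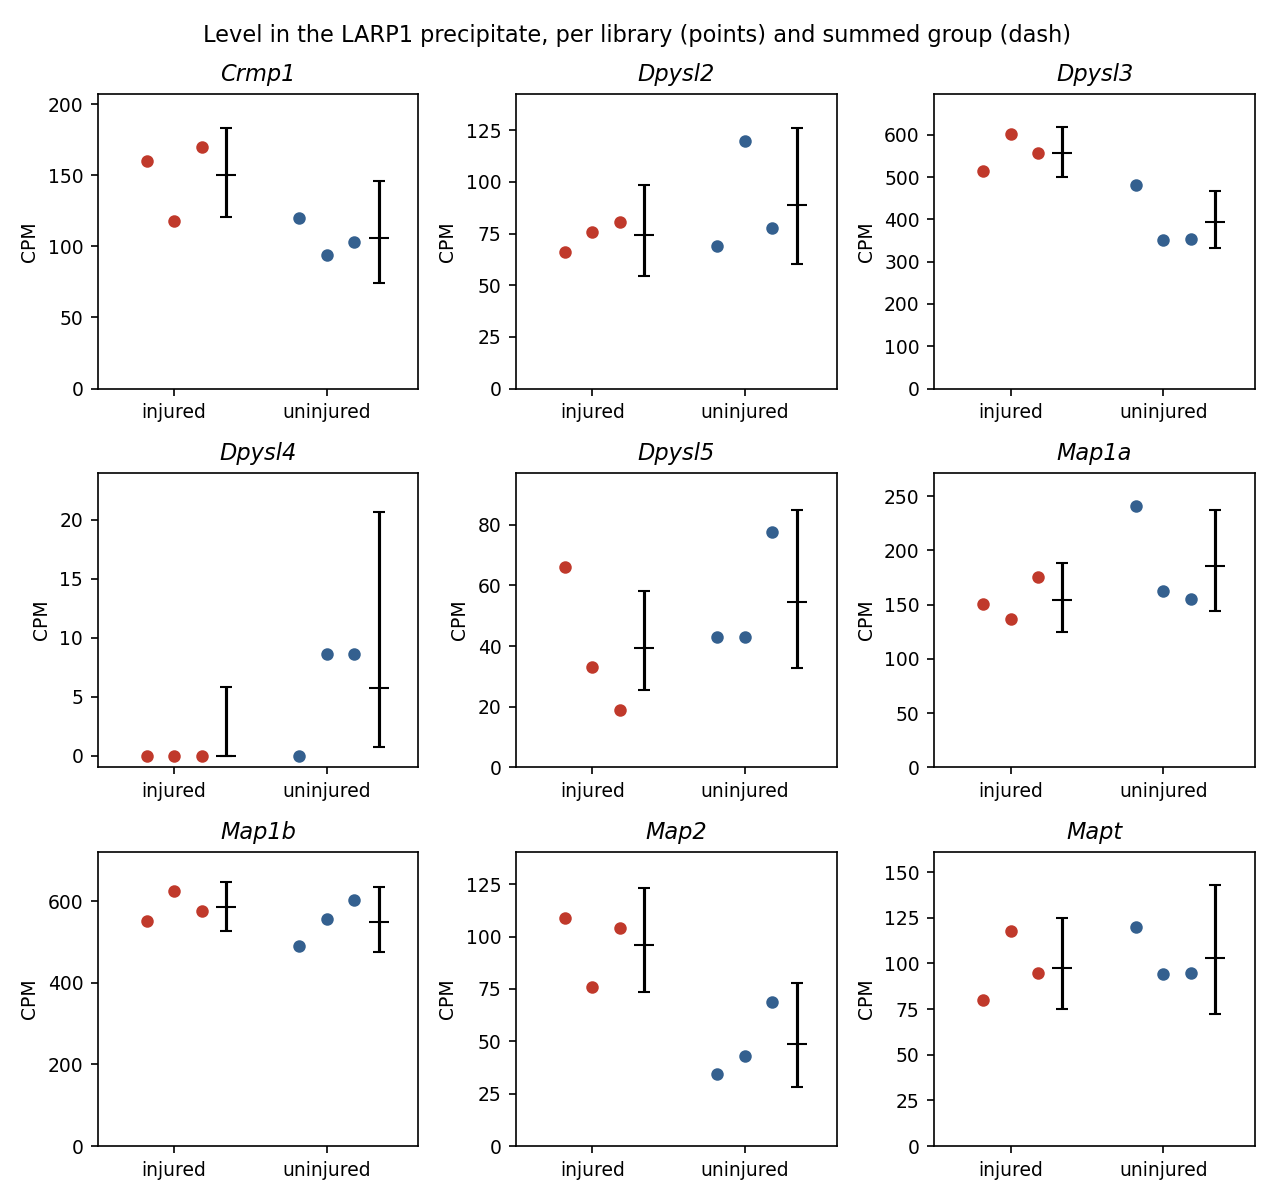
Level of each member in CPM of the library total, in panels whose axes differ in scale; points are the 3 injured (left) and 3 uninjured (right) libraries, and the dash with bars beside them is the level of the summed group with its 95% exact Poisson interval. The libraries of the groups do not overlap for Dpysl3 and Map2, and they overlap for Crmp1, Dpysl2, Dpysl5, Map1a, Map1b and Mapt, while Dpysl4 has 2 counts in all. Of the genes tested, 32.4% had libraries that did not overlap with injured above and 23.1% with injured below.

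Map2 encodes the microtubule-stabilising protein used as the classic marker of neuronal cell bodies and dendrites. In the injured libraries 23, 16 and 22 counts were found, or 109, 75.7 and 104 CPM. The uninjured libraries held 4, 5 and 8 counts, or 34.4, 42.9 and 68.9 CPM. The groups did not overlap, with injured library 2 close above uninjured library 3. Among the genes tested, 32.4% had every injured library above every uninjured library. The summed level was 96.1 CPM (73.5 to 123) with injury and 48.7 CPM (28.4 to 78.0) without, a ratio of 1.97 (1.14 to 3.60). Map2 was the only member past 1.5-fold among the 7 with a mean of at least 10 counts per library, where 29.9% of 2976 genes lay past 1.5-fold higher and 20.3% past 1.5-fold lower. Map2 reached that mean through the injured libraries, which held 61 of its 78 counts, so this standing is not support for a difference. It passed edgeR's filter, 61.0 CPM in at least 3 libraries, through the injured libraries: all 3 reached that level and only 1 of the 3 uninjured libraries did. The call was the less stable of the pair. Map2 was not called under 9 of 17 alternatives and was not tested under 2 more, and its ratio was 1.72 (0.936 to 3.42) without uninjured library 1 and 1.86 (0.992 to 3.80) without uninjured library 2. With 17 uninjured counts, the lower limit of the ratio depends on a few reads.

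Map1b encodes the large MAP that appears early in axon growth and is kept in adult DRG neurons. Its counts were 117, 132 and 122 with injury and 57, 65 and 70 without. The levels were 552, 625 and 577 CPM with injury and 490, 557 and 602 CPM without, and the groups overlapped. The summed level was 585 CPM (527 to 647) in the injured and 550 CPM (475 to 634) in the uninjured precipitate, a ratio of 1.06 (0.890 to 1.27). Its 563 counts were the most of any member, so this interval is the narrowest: ratios above 1.27 or below 0.890 lie outside it.

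Map1a, whose product is the relative of MAP1B that predominates in mature neurons, had 32, 29 and 37 counts, or 151, 137 and 175 CPM, in the injured libraries. The uninjured libraries held 28, 19 and 18 counts, or 241, 163 and 155 CPM. The groups overlapped, and uninjured library 1 stood above all other libraries. The ratio was 0.829 (0.60 to 1.15), and it was 0.972 without uninjured library 1.

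Mapt, which encodes tau, was counted 17, 25 and 20 times in the injured libraries (80.2, 118 and 94.6 CPM), against 14, 11 and 11 counts, or 120, 94.3 and 94.7 CPM, in the uninjured libraries. The groups overlapped, with summed levels of 97.7 CPM (74.9 to 125) in the injured and 103 CPM (72.2 to 143) in the uninjured precipitate. The ratio was 0.947 (0.618 to 1.47), which leaves room for a change of up to 1.47-fold upward or 1.62-fold downward. Counts are per gene, so the large tau isoform of peripheral neurons and the smaller tau forms were not told apart, nor were isoforms of Map2 or of the CRMPs.

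**Figure D2:**
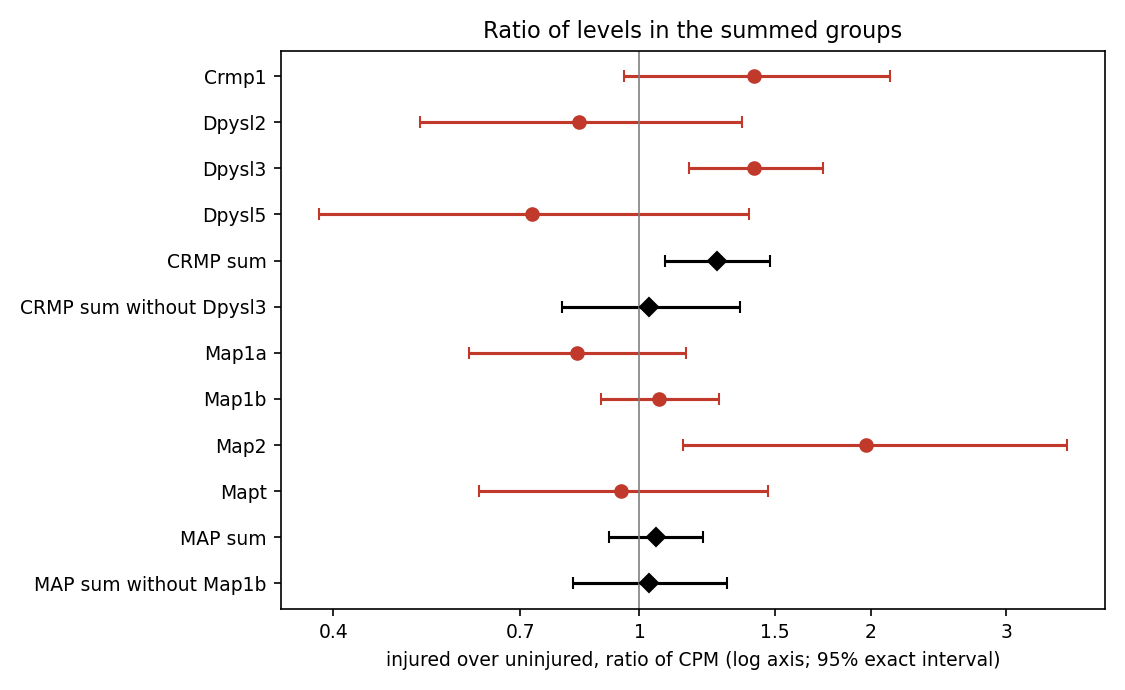
Ratio of injured over uninjured CPM in the summed groups on a log axis, with 95% exact intervals, for 8 members (circles) and the family sums with and without the member holding most counts (diamonds); Dpysl4 has 0 injured counts and is not drawn. The intervals of Dpysl3, Map2 and the CRMP sum lie above 1, and all others include 1.

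Summed over its 5 members, the CRMP family was at 821 CPM (752 to 895) in the injured precipitate and 650 CPM (569 to 741) in the uninjured precipitate, a ratio of 1.26 (1.08 to 1.48). Dpysl3 held most of these counts, and without it the other 4 members summed to 263 CPM with injury and 255 CPM without, a ratio of 1.03 (0.793 to 1.35). The interval of the CRMP sum lay above 1 only with the Dpysl3 counts in it. The 4 MAPs summed to 933 CPM (859 to 1010) with injury and 888 CPM (792 to 993) without, a ratio of 1.05 (0.914 to 1.21). Without Map1b, which held most MAP counts, the ratio was 1.03 (0.820 to 1.30). The ratio of the CRMP sum over that of the MAP sum was 1.20 (0.971 to 1.49), so the families were not separated beyond counting error.

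The share of each member in the reads of its family is free of library depth. Dpysl3 accounted for 67.9% of CRMP counts in the injured group (95% Wilson interval 63.8% to 71.8%) and 60.8% in the uninjured group (54.3% to 66.9%). By library its share was 63.7%, 72.6% and 67.4% with injury and 67.5%, 56.9% and 56.9% without, so the libraries overlapped. Dpysl2 made up 9.02% (6.85% to 11.8%) of CRMP counts in the injured group and 13.7% (9.79% to 18.7%) in the uninjured group, with overlapping intervals. Map2 made up 10.3% of MAP counts in the injured group (8.11% to 13%) and 5.48% in the uninjured group (3.45% to 8.61%), with intervals that overlapped slightly. Its share was 12.2%, 7.92% and 10.9% in the injured libraries and 3.88%, 5.0% and 7.48% in the uninjured libraries, so the single libraries did not overlap. Map1b made up 62.7% (58.7% to 66.5%) of MAP counts with injury and 61.9% (56.4% to 67.2%) without. These are shares of reads, not corrected for the length of an mRNA, so they are compared between groups and not between genes.

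**Figure D3:**
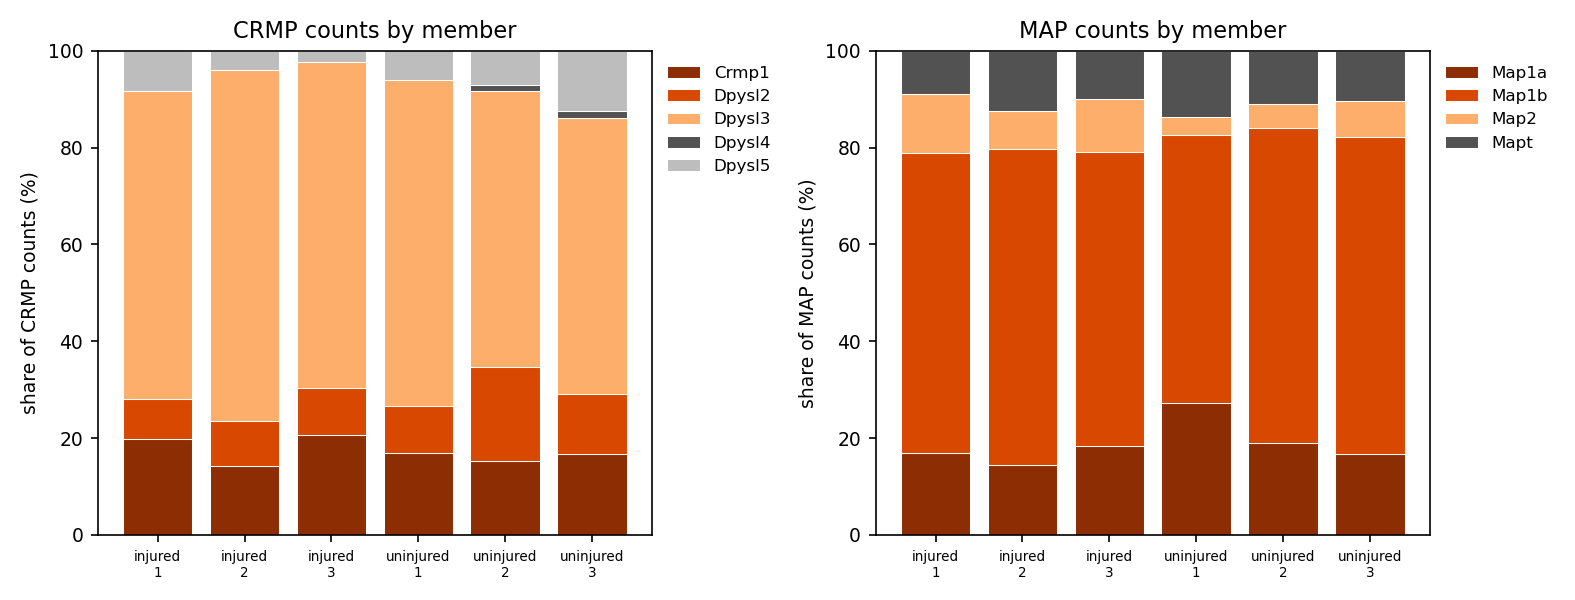
Share of each member in the counts of its family (percent, stacked to 100) in the 3 injured libraries, left, and the 3 uninjured libraries, right, of each panel. Dpysl3 holds 56.9% to 72.6% of CRMP counts in every library, and the Map2 segment is wider in the injured libraries, at 7.92% to 12.2%, than in the uninjured libraries, at 3.88% to 7.48%.

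Whether members of a family responded differently was tested on the ratio of their ratios, with exact conditional intervals, over 16 pairs (10 of CRMPs and 6 of MAPs). The ratio for Map2 exceeded that for Map1a by 2.37 times (1.24 to 4.73), that for Mapt by 2.07 times (1.01 to 4.38) and that for Map1b by 1.86 times (1.04 to 3.49). When the intervals were widened for 16 comparisons, 0 of the 16 pairs remained beyond 1, and the interval for Map2 over Map1a became 0.920 to 6.71. Among the CRMPs, the ratio for Dpysl3 was 1.69 times that for Dpysl2 (0.994 to 2.84) and 1.95 times that for Dpysl5 (0.980 to 3.82), and neither interval excluded 1. Crmp1 and Dpysl3 had ratios that differed by a factor of 1.00 (0.642 to 1.58), an interval that still allows a moderate difference. After that widening, no member's ratio was separated from that of another member of its family at this depth.

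Set against all genes tested, the members lay within the bulk of the distribution. The median log2 ratio of CPM was 0.09 over the 7 members tested and 0.08 over the 3158 genes, whose quartiles were -0.46 and 0.74. Map2, at 0.98, was above 81.4% of the genes tested and was the only member above the upper quartile. It entered the genes tested only through the injured libraries, where it is high. Neither its rank nor the members' median is therefore support for a difference. Dpysl3 and Crmp1, both at 0.50, were above 66.8%, and Map1b, at 0.09, was above 50.3%. Mapt, at -0.08, was above 41.9%, and Dpysl2 and Map1a, at -0.26 and -0.27, were above 33.1% and 32.8%. Libraries that did not overlap between groups, as for Dpysl3 and Map2, were seen with injured above in 32.4% and with injured below in 23.1% of the genes tested.

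**Figure D4:**
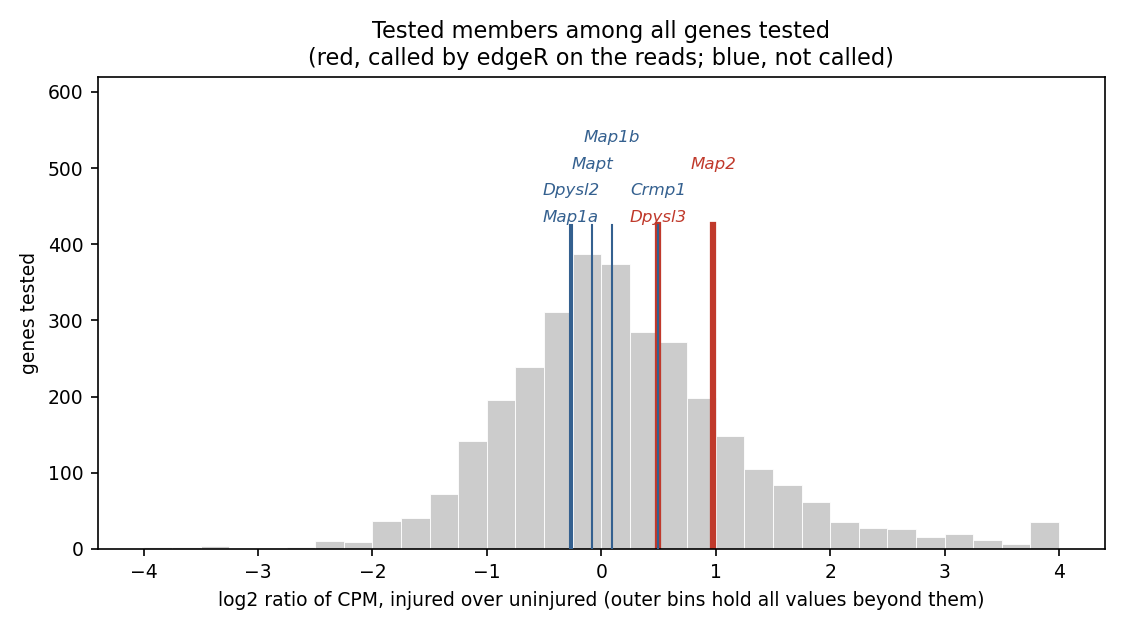
Histogram of the log2 ratio of injured over uninjured CPM for the 3158 genes tested, in bins of 0.25, with the 7 tested members as vertical lines; thick red lines and red names mark the 2 members called by edgeR on the reads and blue the 5 not called. The members run from -0.27 (Map1a) to 0.98 (Map2), within a distribution whose middle lies at 0.08. Map2 is among the genes tested only through its injured libraries.

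The size of each ratio under removal of single libraries gives the spread that the deposited libraries allow. Dpysl3 stayed between 1.34 and 1.58 and Map2 between 1.72 and 2.49, both above 1 with any library left out. The interval for Map2 included 1 without uninjured library 1 (0.936 to 3.42) or uninjured library 2 (0.992 to 3.80). Crmp1 also stayed above 1, at 1.32 to 1.56, and Map1b at 1.01 to 1.12. On the TMM scale, however, the log2 fold change of Map1b fell on both sides of 0, from -0.07 to 0.11. Dpysl5 and Map1a stayed below 1, at 0.478 to 0.917 and 0.765 to 0.972. The intervals for Map1b, Dpysl5 and Map1a included 1 in each of these fits, and that for Crmp1 in each but the fit without injured library 2. Dpysl2 (0.750 to 1.01) and Mapt (0.847 to 1.03) fell on both sides of 1.

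**Figure D5:**
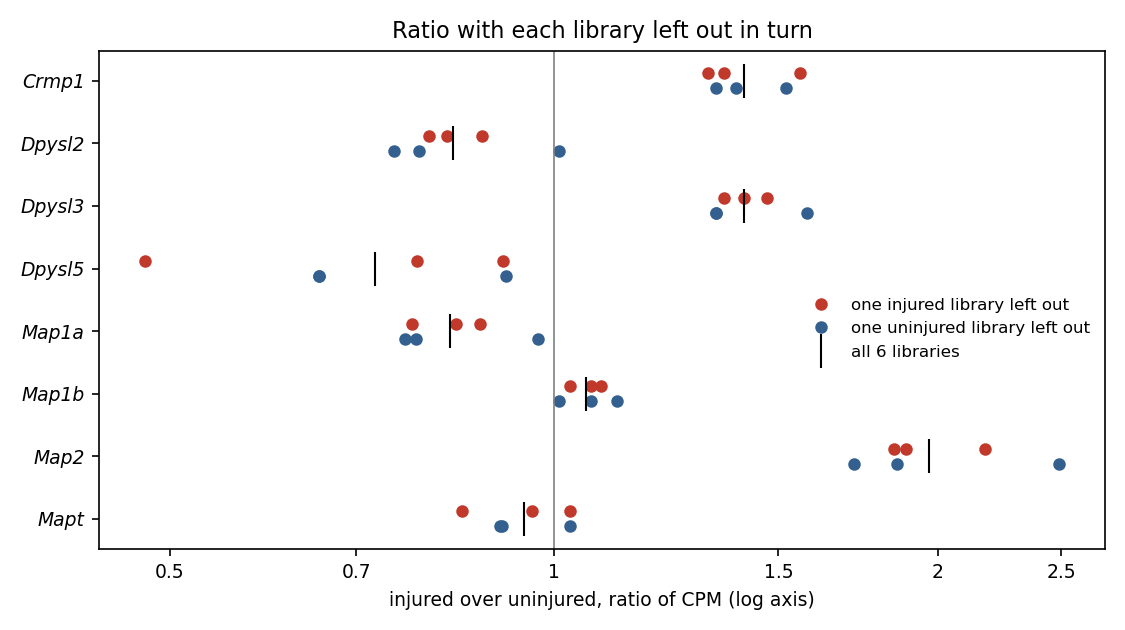
Ratio of injured over uninjured CPM on a log axis for 8 members, with all 6 libraries (black tick) and with each injured (red, upper) or uninjured (blue, lower) library left out; Dpysl4 is not drawn. Dpysl3, Crmp1, Map1b and Map2 remain above 1 and Dpysl5 and Map1a below 1, while Dpysl2 and Mapt fall on both sides. The intervals of these ratios are not drawn. On the TMM scale, which is not drawn either, Map1b falls on both sides of no change.

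The members lie on chromosomes 5 (Crmp1 and Dpysl5), 14 (Dpysl2), 18 (Dpysl3), 7 (Dpysl4), 2 (Map1a), 13 (Map1b), 1 (Map2) and 11 (Mapt), and each is annotated as protein-coding in RefSeq. Their Ensembl identifiers are ENSMUSG00000029121 (Crmp1), ENSMUSG00000022048 (Dpysl2), ENSMUSG00000024501 (Dpysl3), ENSMUSG00000025478 (Dpysl4), ENSMUSG00000029168 (Dpysl5), ENSMUSG00000027254 (Map1a), ENSMUSG00000052727 (Map1b), ENSMUSG00000015222 (Map2) and ENSMUSG00000018411 (Mapt).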

How the data were processed

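RNA co-precipitated with LARP1 was measured in 3 injured and 3 uninjured DRG libraries of barcoded, amplified nanopore cDNA, per the labels' protocols. The authors deposited estimated counts per Ensembl gene without normalization. The submitters' processing notes name minimap2, Salmon and the build GRCm39 (mm39), but the sources used here do not give versions, strand setting, annotation or filters. Salmon divides reads among similar or overlapping transcripts by estimation. All counts were whole, so rounding changed none.

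Columns were matched to samples by library name. CPM used column totals of 116186 to 211879 counts. edgeR 4.0.16 (R 4.3.3; TMM, filterByExpr, Benjamini-Hochberg over 3158 genes) was fitted to the whole table and tested on simulated data; since libraries of a group counted as 1 sample, no p-value of a gene is given. Ratios had exact 95% intervals (SciPy 1.17.1). A floor of 3 counts over the group entered the ratios over all genes and the floor level given for Dpysl4, not the members' ratios or their intervals. All 9 members were named, as the rule required. Alternatives were limma-voom (limma 3.58.1), DESeq2 1.42.0, other scalings and filters, the replicate number as a block, each library left out, summed groups and thinning. The members and lists were chosen with earlier results of these data known. Lists of other microtubule regulators, kinases, semaphorin receptors and cell type markers, and genes with a like pattern, were not analysed here, since 0 of 16976 identifiers could be paired with a symbol beyond the members, whose symbols came with their identifiers.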

Additional observations from a re-analysis of the deposited data

How the results depend on the processing

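The number of members called higher was 2 (Dpysl3 and Map2) and remained 2 with RLE size factors, full library totals or an exact binomial test on summed groups. It was 1 (Dpysl3) with limma-voom, without a filter, with a minimum of 10 counts in 3 libraries and with the replicate block, and 0 with DESeq2 and with summed groups at an assumed coefficient of variation of 0.2 or 0.4. With libraries left out it was 0 to 2. With the injured libraries thinned to 116186 counts in a single random draw it was 3, adding Crmp1 with a log2 fold change of 0.75 against 0.42. The members tested numbered 7 in the main fit, 6 after thinning, 9 without a filter and 5 without injured library 1 or 3. Apart from the main fit and the fit at 0.2, the share of all genes called is not given here. These counts are therefore not a result about the members as a set. No member was called lower in any of the 17 alternatives that tested it, but Dpysl2 was not tested in 4, Dpysl5 in 13 and Dpysl4 in 16. Dpysl3 was called under 12 of them and Map2 under 6; Map2 was not tested without injured library 1 or 3. Whether replicate numbers pair the libraries was not settled, as the correlation between deviations of libraries sharing a number was 0.0389, -0.0063 and -0.0506. The summed CRMP ratio of 1.26 was 1.20 on the TMM or RLE scale and 1.23 to 1.33 with libraries left out; without Dpysl3 it was 1.03. The MAP ratio of 1.05 was 0.998 on the TMM scale and 1.03 to 1.07 with libraries left out, with intervals that included 1. CPM ratios lie 0.07 above the TMM scale in log2. Depth limits the rarer members: Dpysl5, at 44 counts, would have needed a ratio of at least 2.14 or at most 0.502. The causes of these shifts were not tested.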
